A study of Mus musculus with 6 samples.

Results

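The respiratory chain and ATP synthase of group 3 innate lymphoid cells (ILC3s) were followed through 115 of the 33157 rows of a gene count table. The rows were chosen by symbol: the Nduf, Sdh, Uqcr, Cox4 to Cox8 and Atp5 families, which the nucleus encodes (102 rows), and the protein-coding genes of the mitochondrial genome (13 rows). ILC3s, tissue-resident lymphocytes of the gut, had been sorted from small intestine of wild-type mice as CD45+ Lineage- CD90.2hi CD127+ KLRG1- CD45dim cells. All cultures, 3 libraries per group, held interferon-γ (IFN-γ, 20 ng/mL) for 4 h. The control group received nothing more, and the other group also received insulin-like growth factor 1 (IGF-1, 200 ng/mL). No culture without IFN-γ was analysed here, so each difference is one within IFN-γ-treated cells. Nothing in the labels ties the libraries to separate mice, so the p-values measure the scatter among these 6 libraries alone, which may be technical.

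Oxidative phosphorylation is carried out by 5 protein complexes of the inner mitochondrial membrane. Complex I takes electrons from NADH and complex II from succinate, complex III passes them to cytochrome c, and complex IV passes them to oxygen. Complex V, the ATP synthase, uses the proton gradient built up along the way to make ATP. The mitochondrial genome encodes core membrane subunits of all complexes except complex II, and the nucleus encodes the rest, so assembly needs products of both genomes. IGF-1 signals through a receptor tyrosine kinase to AKT and mTORC1, a pathway known for its control of cell growth and metabolism.

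Many promoters of nuclear respiratory genes are known to hold sites for NRF1, for ETS factors such as GABP (NRF2) and for YY1, so the letters of these motifs were searched on both strands. RefSeq promoters (GRCm38.p6, 250 bases before to 50 after the start) were matched for 76 of the 95 nuclear rows that are not copies of another gene. A gene counted once if any of its promoters held the motif. The NRF1 motif (GCGCA, any base, then GCGC) lay in 19 of the 76 (25.0%), against 5.19% of all 27025 genes with a promoter and 11.3% of the tested ones. The ETS motif CCGGAAG lay in 18 (23.7%, against 9.93% and 20.3%), and the YY1 motif AAGATGGCG in 8 (10.5%, against 1.64% and 3.60%). The ETS and YY1 motifs can share the letters AAG where they adjoin. A match is a description of the sequence, not a bound site. Of 4 members with both an NRF1 and an ETS match, 3 are shown with Sdha, whose promoter holds 3 NRF1 matches, and with Atp5mc1, which holds none and had the largest difference of complex V. Each line gives the 150 bases before the start, on the gene's strand, which is the minus strand for all 5, with motif matches in capitals. The stretches lie at chr13:74350241-74350390 (Sdha), chr9:50603850-50603999 (Sdhd), chr11:115419920-115420069 (Atp5pd), chr5:115348959-115349108 (Cox6a1) and chr11:96075632-96075781 (Atp5mc1), in a build other than the GRCm39 of the counts.
Sdha: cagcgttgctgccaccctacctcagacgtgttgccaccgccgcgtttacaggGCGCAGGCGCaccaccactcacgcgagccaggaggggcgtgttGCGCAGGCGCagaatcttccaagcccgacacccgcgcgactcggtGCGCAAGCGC
Sdhd: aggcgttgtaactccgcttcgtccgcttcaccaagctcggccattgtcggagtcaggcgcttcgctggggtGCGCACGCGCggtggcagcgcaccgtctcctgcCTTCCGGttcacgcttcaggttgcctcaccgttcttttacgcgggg
Atp5pd: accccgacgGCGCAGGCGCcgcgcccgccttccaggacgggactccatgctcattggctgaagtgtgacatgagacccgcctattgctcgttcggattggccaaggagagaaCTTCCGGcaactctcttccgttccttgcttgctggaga
Cox6a1: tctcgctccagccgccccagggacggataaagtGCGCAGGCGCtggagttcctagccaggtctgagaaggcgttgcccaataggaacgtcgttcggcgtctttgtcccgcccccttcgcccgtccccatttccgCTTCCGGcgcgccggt
Atp5mc1: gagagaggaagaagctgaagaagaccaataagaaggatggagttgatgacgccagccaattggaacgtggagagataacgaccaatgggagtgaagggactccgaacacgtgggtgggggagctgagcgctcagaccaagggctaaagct

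Total counts ran from 32573713 to 39206449 per library, and 13483 genes passed the filter on low counts. Between the groups 31 genes were called higher with IGF-1 and 36 lower (edgeR quasi-likelihood test, Benjamini-Hochberg adjusted p under 0.05). ILC3 markers (6 genes) summed to 2292 to 2402 CPM (counts scaled to a common library size) in control libraries and 2208 to 2414 with IGF-1. The sum hides differences in direction: only 1 of the 6 had a log2 fold change above 0, and that gene was called higher. NK cell and ILC1 markers (5 genes, Eomes at 0 counts) summed to 63.1 to 77.1 CPM and 103 to 122 CPM, with 1 called higher (Ncr1, 28.2 ± 1.09 and 71.5 ± 6.62 CPM). Of the 4 tested genes of that list, 3 had a log2 fold change above 0. The exception was Klrb1c, the other abundant gene, at 38.2 ± 4.89 and 30.7 ± 4.66 CPM (SD, n = 3 each, log2 fold change -0.32). Epithelial markers (6 genes, Alpi at 0) summed to 33.2 to 45.9 CPM and 14.8 to 21.8 CPM, with 1 called lower (Epcam). Marker sums for ILC2s (91.2 to 103.7 and 67.3 to 97.7 CPM), T cells (42.6 to 50.6 and 35.9 to 47.0 CPM), myeloid cells (at most 8.03 CPM) and fibroblasts (at most 3.65 CPM) overlapped between the groups. B and plasma cell markers (5 genes, Ms4a1 at 0) were at most 0.568 CPM except in control replicate 3, at 522 CPM, nearly all of it Jchain. The part of these other cells in the differences below was not tested.

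Of the 115 rows, 106 passed the filter. None was called by edgeR, where 0.230% of all genes tested were called higher and 0.267% lower, and none by DESeq2, where 1.51% and 1.96% were. At an unadjusted p under 0.05 by edgeR, 11 members were higher with IGF-1, at a background of 5.58% of all genes, and 0 were lower, at a background of 6.24%. DESeq2 gave 13 higher and 1 lower at that level, where 6.54% and 7.33% of all genes were. The log2 fold change was above 0 in 93 of the 106, where 48.7% of all genes were above 0. Its median was 0.17 over the members and -0.01 over all genes. Abundant genes leaned the same way: of the 2445 genes of at least 100 CPM, 60% were above 0, with a median of 0.05. The values of the 3 IGF-1 libraries lay above all 3 controls in 13 members (8.81% of all genes) and below them in 1 member (9.17% of all genes). In bulk RNA, a change in the number of cells with these transcripts and a change in their RNA per cell cannot be told apart.

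**Figure D1:**
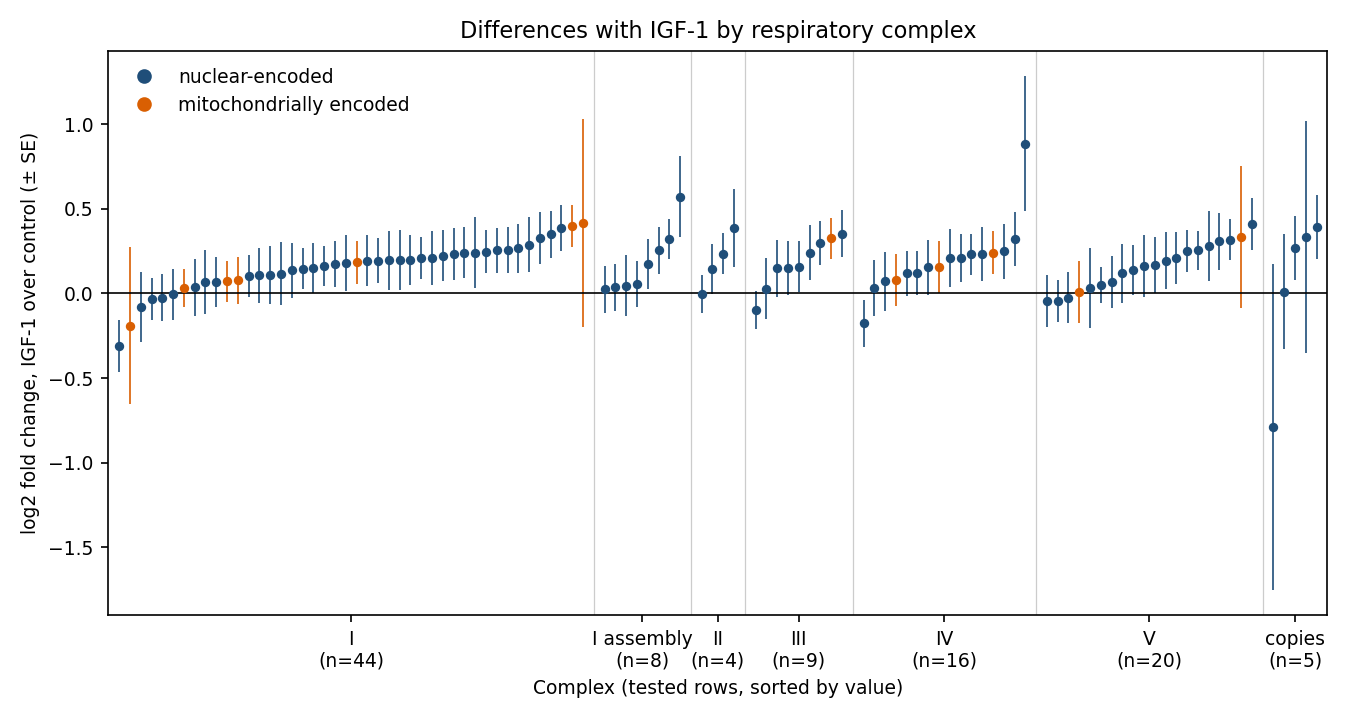
Log2 fold change (IGF-1 over control, with SE) of each of the 106 tested rows, grouped by complex and sorted within it, with nuclear-encoded rows in blue and mitochondrially encoded rows in orange. Points lie above 0 for 93 of the 106 rows, and no row passed the adjusted threshold.

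The nuclear-encoded subunits (87 rows, 80 tested) had a median log2 fold change of 0.18, with 69 of the 80 above 0. By complex the medians were 0.19 for complex I (37 rows), 0.19 for complex II (4), 0.15 for complex III (8), 0.21 for complex IV (13 tested of 20) and 0.16 for complex V (18). Their summed level was 23229, 23402 and 21869 CPM in control replicates 1 to 3, and 26110.3, 29508 and 21090 CPM in IGF-1 replicates 1 to 3. IGF-1 replicates 1 and 2 were thus above every control, and IGF-1 replicate 3 was below every control. By complex, IGF-1 replicate 3 was the lowest library for complexes I, III, IV and V (88.4% to 94.7% of the control mean), but not for complex II, where it stood at 104% and control replicate 2 was lowest (94.6%). The means were 22833 ± 840 and 25569 ± 4235 CPM (SD, n = 3 each), a log2 ratio of 0.16, and the spread among the IGF-1 libraries exceeded the difference between the means.

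Single members were counted in the same way. IGF-1 replicates 1 and 2 lay above all controls in 70 of the 106 members, where 16.1% of all genes did so. IGF-1 replicate 3 was the lowest of the 6 libraries in 51 members (15.1% of all genes), and IGF-1 replicate 2 was the highest in 79 (18.9% of all genes). Without IGF-1 replicate 3 the median of the nuclear subunits was 0.31 and 48 of the 106 members had an unadjusted p under 0.05, at a background of 6.35% of all genes. With the replicate number as a block, these 5 libraries gave 11 such members (2.37% of all genes), a fit chosen after seeing the data. Without IGF-1 replicate 2 the median was 0.05 and 1 member did (3.63% of all genes). No member was called in these fits (edgeR). Summed levels of each complex, nuclear and mitochondrial, are plotted per library.

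**Figure D2:**
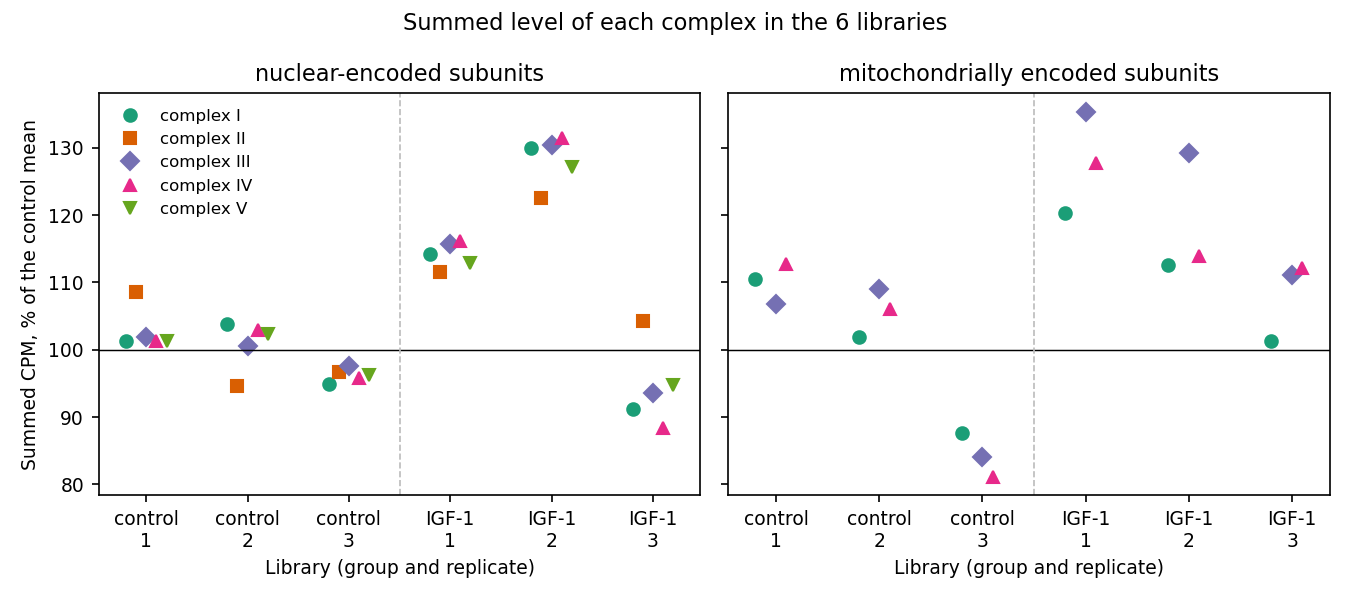
Summed CPM of each complex in each of the 6 libraries, as a percentage of the control mean (line at 100%), for nuclear-encoded (left) and mitochondrially encoded (right) subunits. Nuclear sums stand highest in IGF-1 replicate 2 for every complex, and in IGF-1 replicate 3 they are below 100% for complexes I, III, IV and V, while the mitochondrial sums are lowest in control replicate 3. The mitochondrial rows of complex V, 2 of low count, are left out.

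In complex I, Ndufv2, the core subunit with the N1a iron-sulphur cluster, had 302, 334 and 282 CPM in control replicates 1 to 3 and 406, 451 and 343 CPM with IGF-1 (log2 fold change 0.39, SE 0.13, edgeR adjusted p = 0.280). All of its IGF-1 libraries were above all controls, the nearest pair being control replicate 2 and IGF-1 replicate 3. The 7 nuclear core subunits were divided, with 4 above 0: Ndufs1, which holds further iron-sulphur clusters, was at 0.21, Ndufv1, the NADH-binding subunit, at -0.03, and Ndufs7, which carries the last cluster before quinone, at -0.03.

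The accessory subunits of complex I, which surround the core and are needed for its assembly and stability, were above 0 in 28 of 30 (median 0.19). Ndufb6, in the membrane arm, had 76.9, 90.6 and 78.5 CPM in controls and 108, 116 and 89.3 CPM with IGF-1 (0.35, SE 0.14, edgeR adjusted p = 0.347). Only IGF-1 replicate 3 lay within the control range. The most abundant accessory members in CPM were Ndufa13 (0.22, SE 0.15), also known as GRIM-19, and Ndufb7 (0.24, SE 0.15), and in both IGF-1 replicate 3 was below every control. The 8 complex I assembly factors matched by symbol were all above 0 (median 0.11). Among them Ndufaf4 had 57.2, 56.6 and 57.6 CPM in controls and 72.7, 74.4 and 67.0 CPM with IGF-1 (0.32, SE 0.12, edgeR adjusted p = 0.319). Its 3 IGF-1 libraries, replicate 3 included, stood clear of a tight control group.

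Complex II, which is also the citric acid cycle enzyme succinate dehydrogenase, varied least in its catalytic subunit. Sdha, the flavoprotein, had 265, 304 and 283 CPM in controls and 275, 279 and 295 CPM with IGF-1 (0.00, SE 0.11). The groups overlapped fully. Sdhb, the iron-sulphur subunit, was at 0.23 (SE 0.12), and the membrane anchors Sdhc and Sdhd were at 0.39 (SE 0.23) and 0.14 (SE 0.15). Sdhc was the most scattered of the 4, with 165, 83.5 and 116 CPM in the controls alone.

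In complex III, Uqcrq, a small subunit beside cytochrome b, had 323, 345 and 359 CPM in controls and 445, 507 and 359 CPM with IGF-1 (0.35, SE 0.14, edgeR adjusted p = 0.346). IGF-1 replicate 3 was level with control replicate 3, and the other IGF-1 libraries were above. Uqcrc2, a core protein, had 136, 124 and 142 CPM in controls and 161, 187 and 147 CPM with IGF-1 (0.30, SE 0.13, edgeR adjusted p = 0.408), with the groups just apart. The Rieske iron-sulphur protein Uqcrfs1, one of the redox subunits, was at -0.10 (SE 0.11), the only nuclear member of complex III below 0. The 5 small subunits were all above 0 (median 0.16), and in 4 of them IGF-1 replicate 3 was the lowest library. The most abundant in CPM was Uqcr11, at 0.24 (SE 0.16).

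Complex IV showed which tissue forms of its subunits these cells use. Among the paired isoforms, the widely expressed Cox4i1, Cox6a1, Cox6b1, Cox7a2, Cox7b, Cox8a and Ndufa4 averaged 346 to 874 CPM. Their tissue-restricted counterparts Cox6a2 (heart and muscle) and Cox7b2 had 0 counts in all libraries, and Cox4i2, Cox6b2, Cox8b, Cox8c and Ndufa4l2 had 1 to 22 counts in total, of which 19 of the 22 for Cox6b2 were in control replicate 2. The exception was Cox7a1, the heart and muscle form of subunit 7a. It had 3.03, 3.20 and 4.15 CPM in controls and 6.93, 8.59 and 3.66 CPM with IGF-1 (0.88, SE 0.40, edgeR adjusted p = 0.423). IGF-1 replicates 1 and 2 were above all controls and replicate 3 was among them. This was the largest positive log2 fold change of any member, at a level per kb of transcript of 10.2 CPM against 525 CPM for Cox7a2.

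The widely expressed isoforms named above were all above 0, and none was called. Cox4i1 had 934, 807 and 774 CPM in controls and 927, 1032 and 769.5 CPM with IGF-1 (0.12, SE 0.13), with no separation of the groups. Cox6b1 was at 0.23 (SE 0.16), Cox8a at 0.25 (SE 0.16), Cox7b at 0.21 (SE 0.17), Cox7a2 at 0.15 (SE 0.16) and Cox6a1 at 0.12 (SE 0.13). In all 5 of these IGF-1 replicate 3 was the lowest library. Ndufa4, a subunit first assigned to complex I and now placed in complex IV, was at 0.32 (SE 0.16). Cox7a2l, which links complexes III and IV into supercomplexes, was the only tested nuclear member of complex IV below 0 (-0.18, SE 0.14).

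In complex V the F1 head, which holds the catalytic sites, had 3 of 5 members above 0 (median 0.05), with Atp5f1a (alpha) at 0.05 (SE 0.11) and Atp5f1b (beta) at -0.04 (SE 0.12). The c subunit, whose ring turns with the proton flow, is made from 3 genes with the same mature protein. Atp5mc1 had 275, 278 and 278 CPM in controls and 367, 447 and 289 CPM with IGF-1 (0.41, SE 0.15, edgeR adjusted p = 0.319). The controls were close together and all IGF-1 libraries were above them, IGF-1 replicate 3 by little. Atp5mc3 was at 0.25 (SE 0.12) and its groups did not overlap, whereas Atp5mc2 was at 0.07 (SE 0.15).

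Among the 4 peripheral stalk members, all above 0 (median 0.20), Atp5pb had 434, 439.8 and 385 CPM in controls and 541, 565 and 463 CPM with IGF-1 (0.32, SE 0.12, edgeR adjusted p = 0.323). Its groups did not overlap, with control replicate 2 nearest to IGF-1 replicate 3. Atp5pf, of the same stalk, was at 0.14 (SE 0.15). The 5 accessory membrane subunits were all above 0 (median 0.17), and IGF-1 replicate 3 was the lowest library in all 5. Atp5if1, the inhibitor that binds the head when the proton gradient fails, was at -0.04 (SE 0.15).

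The mitochondrial rows showed another order of libraries. They took 2.00%, 1.99% and 1.62% of counts in control replicates 1 to 3 and 2.31%, 2.06% and 2.01% in IGF-1 replicates 1 to 3. All IGF-1 libraries were above all controls, by the smallest margin between IGF-1 replicate 3 and control replicate 1. Summed levels were 18542 ± 2439 CPM in controls and 21538 ± 1796 CPM with IGF-1 (SD, n = 3 each), a log2 ratio of 0.22. On this scale IGF-1 replicate 3 was below control replicate 1, so the groups overlapped. The median log2 fold change was 0.16 over the 13 rows, with 12 above 0. Control replicate 3 was the lowest library in 11 of the 13 (16.0% of all genes), and IGF-1 replicate 1 the highest in 9 (13.2% of all genes). Without control replicate 3 the median was 0.06, and without IGF-1 replicate 3 it was 0.24. Control replicate 3 is also the library with the Jchain counts, whose part in this was not tested.

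Of single mitochondrial genes, ND5, a proton-pumping subunit of complex I, had the smallest p of all members. Its level was 1700.4, 1392 and 1359.7 CPM in controls and 2133, 1765 and 1963 CPM with IGF-1 (0.40, SE 0.12, edgeR adjusted p = 0.222, DESeq2 adjusted p = 0.0769). All IGF-1 libraries were above all controls, IGF-1 replicate 3 included. CYTB, the cytochrome b of complex III, had 4557, 4653 and 3586 CPM in controls and 5773, 5514 and 4741 CPM with IGF-1 (0.32, SE 0.12, edgeR adjusted p = 0.321). The groups were apart, though IGF-1 replicate 3 was close to control replicate 2. COX1, the catalytic subunit of complex IV, had 5137, 4838 and 3688 CPM in controls and 5826, 5186 and 5122 CPM with IGF-1 (0.24, SE 0.13, edgeR adjusted p = 0.509). Here control replicate 1 lay inside the IGF-1 range.

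Among the other complex I genes of the mitochondrial genome, ND1, at the quinone site, was at 0.18 (SE 0.13), and the membrane-arm subunits ND2, ND4 and ND6 were at 0.03 (SE 0.11), 0.07 (SE 0.12) and 0.08 (SE 0.14). COX2 and COX3, the other mitochondrial core subunits of complex IV, were at 0.08 (SE 0.15) and 0.16 (SE 0.16), and ATP6, the channel subunit of complex V, at 0.01 (SE 0.18). ND3 (-0.19, SE 0.46), ND4L (0.42, SE 0.61) and ATP8 (0.33, SE 0.42) rested on levels of at most 4.23 CPM. The kit does not mark strand and ND6 lies on the opposite strand to the other genes, and ATP8 overlaps ATP6, so such counts cannot be fully assigned.

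The mitochondrial rows differed far more from one another in level than between groups. Per kb of gene, COX1 averaged 3214 CPM, ND1 3408 CPM and CYTB 4199 CPM, while COX2 averaged 69.3 CPM, COX3 71.7 CPM and ATP6 82.1 CPM. ND3, ND4L and ATP8 were at 9.37, 4.85 and 14.6 CPM per kb. The low rows, ATP8 apart, were those with near-identical nuclear copies along 90% or more of their length. COX2 has an identical copy in Gm28661 over 681 of its 684 bases, ATP6 in Gm10925 over 678 of 681, COX3 in Gm28437 over 783 of 784 and ND4L in Gm10222 over 294 of 297. ND3 has a copy in Gm28438 with 1 differing base in 345. These are pseudogenes on chromosome 1, found by comparing the mitochondrial genes with GENCODE M21 transcripts (GRCm38). ND1, ND2, ND5, ND6 and CYTB had no copy with at most 0.5% differing bases, and COX1 had 483 of 1545 bases in such a stretch, ND4 876 of 1378 and ATP8 43 of 204. How reads matching both a gene and its copy were counted is not given in the sources used here, so the levels of COX2, COX3, ATP6, ND3, ND4L and, in part, ND4, ATP8 and COX1 are uncertain and their ratios to other rows are not levels of the transcripts. Stretches of 60 bases, on the sense strand from the GENCODE M21 transcripts, show a near-identical and a more distant copy: ND3 (bases 1 to 60) beside Gm28438, and CYTB (bases 543 to 602) beside its nearest copy, Gm11410 on chromosome 4, which differs at 81 of 1142 positions. Capitals mark the positions that differ between the members of a pair.
ND3: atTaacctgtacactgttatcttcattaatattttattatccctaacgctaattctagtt
Gm28438: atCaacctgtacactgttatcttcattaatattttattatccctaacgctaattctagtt
CYTB: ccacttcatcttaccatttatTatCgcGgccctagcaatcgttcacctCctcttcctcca
Gm11410: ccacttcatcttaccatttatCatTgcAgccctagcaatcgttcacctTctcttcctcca

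**Figure D3:**
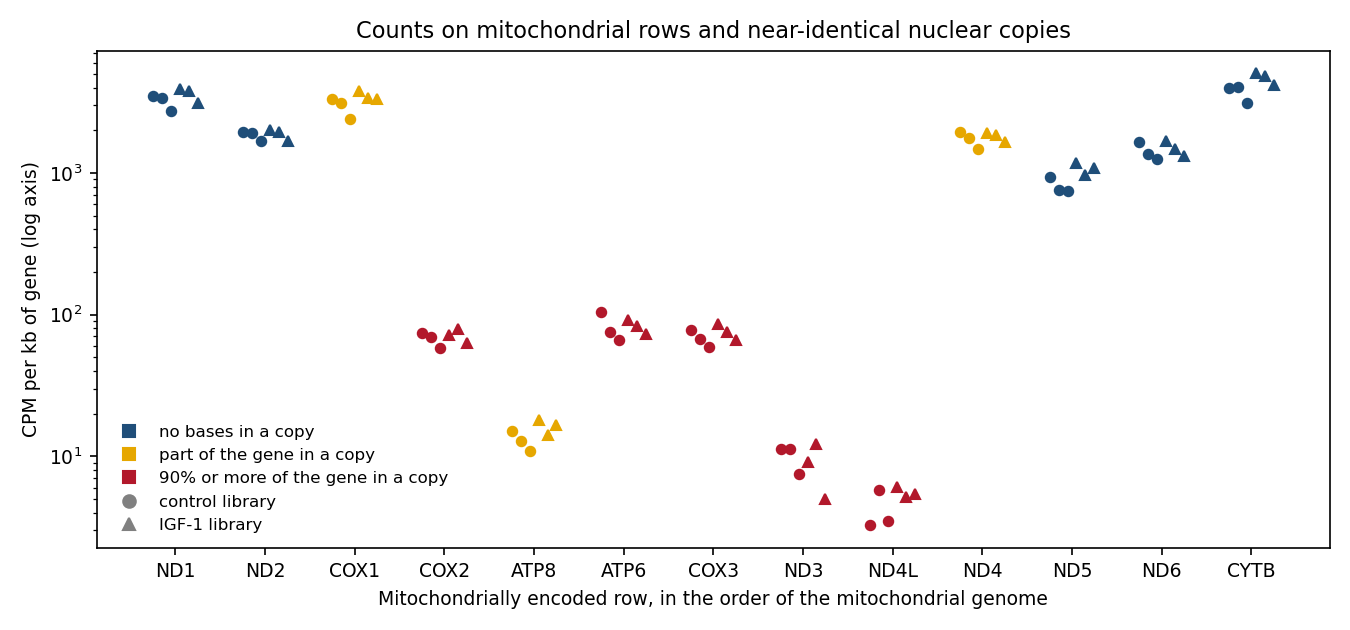
CPM per kb of gene (log axis) of the 13 mitochondrially encoded rows in the order of the mitochondrial genome, circles for control and triangles for IGF-1 libraries, coloured by how much of the gene has a nuclear copy with at most 0.5% differing bases. The 5 rows with 90% or more of their length in such a copy lie between 4.85 and 82.1 CPM per kb on average, and the 5 rows with none between 942 and 4199.

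The ratio of mitochondrial to nuclear OXPHOS counts was 0.861, 0.811 and 0.706 in control replicates 1 to 3 and 0.873, 0.718 and 0.911 in IGF-1 replicates 1 to 3. The means were 0.793 ± 0.0789 and 0.834 ± 0.103 (SD, n = 3 each), a difference smaller than the spread. Within the IGF-1 group, replicates 2 and 3, the highest and lowest in nuclear subunits, were lowest and highest in this ratio. Nuclear counts are the denominator of the ratio, so this order is not a separate observation. Over all 6 libraries the ratio was lowest in control replicate 3. The nuclear RNAs Malat1 and Neat1 together stood at 1450 to 2514 CPM in controls and 1039 to 1912 CPM with IGF-1, lowest in IGF-1 replicate 2. Their part in the pattern was not tested.

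Coding length moved with differences among libraries, in both groups. For the 83 tested nuclear rows with a known coding length, copies left out, the log2 CPM in each library was taken relative to the control mean. In IGF-1 replicate 3 the median was -0.23 for coding lengths up to 300 bases (20 rows), -0.16 up to 450 (24), 0.01 up to 900 (24) and 0.06 above 900 (15). In IGF-1 replicate 1 these medians were 0.27, 0.22, 0.19 and -0.02, and in replicate 2 they were 0.44, 0.39, 0.40 and 0.18. The rows with the shortest coding sequence were thus the ones on which the IGF-1 libraries disagreed most. In the IGF-1 libraries, other genes of at least 100 CPM showed a similar order, with -0.14, -0.09, 0.00 and 0.04 in replicate 3. Their medians were 0.20, 0.14, 0.08 and -0.00 in replicate 1, and 0.32, 0.26, 0.20 and -0.02 in replicate 2. Across the 83 rows Spearman's rho with coding length was 0.64 in IGF-1 replicate 3, -0.41 in replicate 1 and -0.29 in replicate 2. It was 0.46, -0.52 and 0.04 in control replicates 1 to 3, so such trends were not limited to the IGF-1 libraries. Over the other genes rho was -0.34, 0.16 and 0.38 in control replicates 1 to 3, opposite in sign to the members in replicates 1 and 2. In IGF-1 replicates 1 to 3 it was -0.27, -0.48 and 0.13 over the other genes. The rows share libraries, so this is a description. What part transcript length had in the differences with IGF-1 was not tested.

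**Figure D4:**
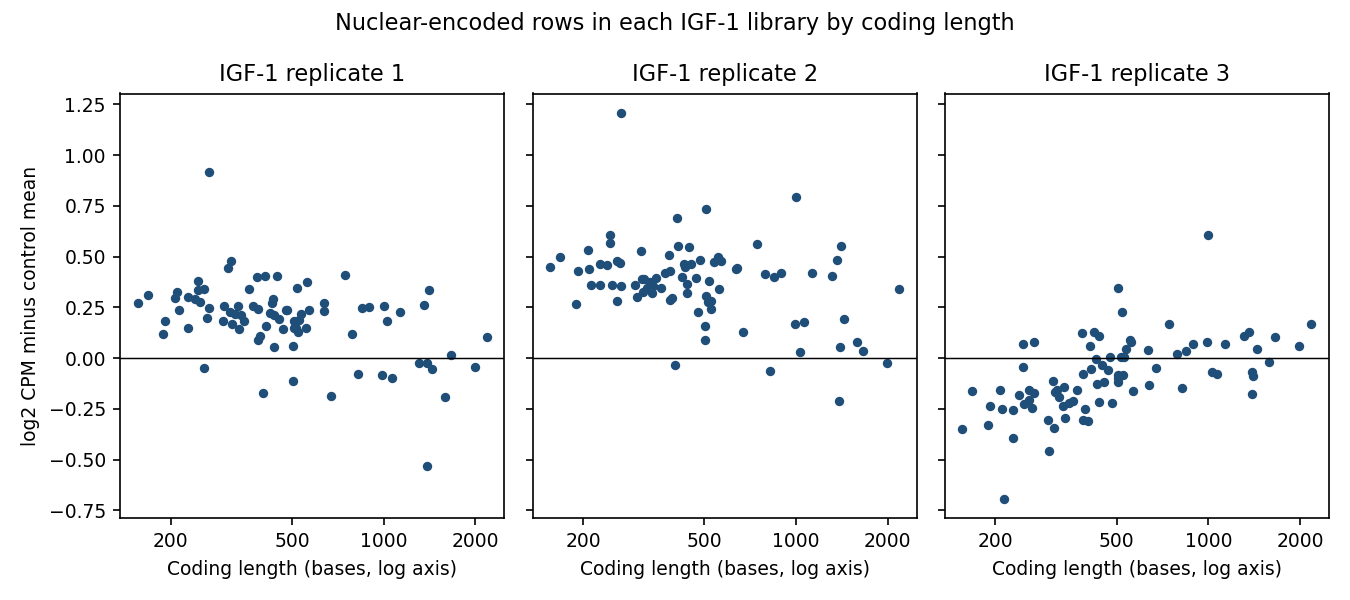
Log2 CPM minus the control mean of each of the 83 nuclear-encoded rows against coding length in bases (log axis), 1 panel per IGF-1 library. Rows of up to 300 bases have medians of -0.23 in replicate 3, 0.27 in replicate 1 and 0.44 in replicate 2, and rows above 900 bases have medians of 0.06, -0.02 and 0.18, with single rows well off them.

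Members with and without a promoter motif had medians close to one another. The median log2 fold change was 0.14 over 19 tested members with the NRF1 motif and 0.19 over 54 without it, 0.19 over 18 with the ETS motif and 0.17 over 55 without, and 0.15 over 8 with the YY1 motif and 0.18 over 65 without. Sdha, with the 3 NRF1 matches shown above, was at 0.00, and Atp5mc1, with none, at 0.41. The 4 members with both an NRF1 and an ETS match were Atp5pd at 0.19 (SE 0.17), Sdhd at 0.14 (SE 0.15), Cox6a1 at 0.12 (SE 0.13) and Atp5me at 0.03 (SE 0.23).

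Around the subunits, genes that assemble, supply or regulate the chain were looked up in 5 lists. The calls in them are by edgeR, where 0.230% of all genes tested were called higher and 0.267% lower. Of 44 tested assembly factors, 0 were called and 34 were above 0 (median 0.13), where 48.7% of all genes were above 0. At an unadjusted p under 0.05 by edgeR, 0 were lower (6.24% of all genes). At that level 2 were higher, no more than the background of 5.58% of all genes. These 2 were Sdhaf2, which attaches the flavin to Sdha (0.31, SE 0.12, edgeR adjusted p = 0.319), and Uqcc2, a complex III assembly factor (0.42, SE 0.18, edgeR adjusted p = 0.396). Electron carriers and cytochrome genes (20 tested) had 0 called and 14 above 0 (median 0.15). None had an unadjusted p under 0.05 by edgeR in either direction. The smallest p in that list belonged to Coq8b, a factor of coenzyme Q synthesis, at -0.57 (SE 0.26), and Etfa, of the electron transfer flavoprotein, at 0.27. Genes that express mitochondrial DNA (26 tested) had 0 called and 19 above 0 (median 0.12). By edgeR 1 was higher and 1 lower at an unadjusted p under 0.05. That was no more than the backgrounds of 5.58% and 6.24% of all genes. The higher gene was Fastkd2, a mitochondrial RNA-binding protein, at 0.65 (SE 0.21, edgeR adjusted p = 0.240). The lower gene was its relative Fastkd5, at -0.50 (SE 0.20, edgeR adjusted p = 0.364).

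Regulators of mitochondrial biogenesis (15 tested) had 0 called by edgeR (0.230% of all genes higher, 0.267% lower), with 6 above 0 and a median of -0.07. At an unadjusted p under 0.05 by edgeR, 1 was higher (5.58% of all genes) and 2 were lower (6.24% of all genes). Gabpa, the DNA-binding subunit of the ETS factor GABP, had 44.6, 43.0 and 48.7 CPM in controls and 62.6, 62.7 and 62.7 CPM with IGF-1 (0.46, SE 0.13, edgeR adjusted p = 0.174, DESeq2 adjusted p = 0.0322). Its groups were well apart, where 8.81% of all genes were apart and higher. It was the 1 call of DESeq2 in this list, where 1.51% of all genes were called higher and 1.96% lower. Tfe3, a transcription factor of lysosome and mitochondrial genes, was at -0.52 (SE 0.15, edgeR adjusted p = 0.192), also with no overlap (9.17% of all genes apart and lower). Ppargc1a, the coactivator PGC-1α, did not pass the filter on low counts.

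The citric acid cycle list, with the regulators of pyruvate dehydrogenase, held the only call of the 5 lists by edgeR. Of its 24 tested genes 1 was called higher (0.230% of all genes) and 0 lower (0.267% of all genes). At an unadjusted p under 0.05 by edgeR, 7 were higher (5.58% of all genes) and 1 lower (6.24% of all genes). The median of the list was 0.03. Pdp1, the phosphatase that switches pyruvate dehydrogenase on, rose from 44.0, 52.2 and 49.0 CPM in controls to 79.0, 83.7 and 93.1 CPM with IGF-1 (0.82, SE 0.13, edgeR adjusted p = 0.0361). All 3 IGF-1 libraries were far above the controls, and IGF-1 replicate 3 was the highest. The call was lost when any 1 library was left out (edgeR adjusted p from 0.0586 to 0.211) and with library size scaling (edgeR adjusted p = 0.0525). Pdk3, a kinase that switches the same enzyme off, had 18.3, 15.3 and 18.4 CPM in controls and 27.0, 28.4 and 30.1 CPM with IGF-1 (0.71, SE 0.17, edgeR adjusted p = 0.125, DESeq2 adjusted p = 0.00768).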

How the data were processed

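RNA of 6 libraries of sorted ILC3s, 3 per group by their titles, was amplified, per the labels' protocols, by SMART-Seq HT, a kit that does not mark strand. The authors deposited raw counts for each gene, and per the submitters' processing notes fastp 0.23.2, HISAT2 2.2.1, SAMtools 1.15.1, featureCounts 1.5.3 and GRCm39 were used. For the annotation, the strand setting and multi-mapping reads, the settings were not given in the sources used here.

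Genes were kept by filterByExpr by group (minimum count 10, minimum total 15) and tested in R 4.3.3 by edgeR 4.0.16 (TMM, glmQLFit, glmQLFTest, group as the only term, Benjamini-Hochberg adjustment over all 13483 genes at 0.05). SEs are the absolute log2 fold change over the root of F, and CPM uses TMM-scaled sizes. Medians of lists are descriptions, with no test. Alternatives were a replicate block, 3 other scalings, scaling without mitochondrial rows, 2 other filters, DESeq2 1.42.0 and leaving out each library. The edgeR test was checked on simulated counts. Libraries of a group differed beyond sampling noise (chi-square per degree of freedom 28.8 to 62.1), so none was a second count of another library of its group. Separate amplifications of the same RNA could also differ this way, so technical replicates cannot be told apart from separate samples. PCR reads were counted without molecular identifiers and are not independent molecules. Exact two-sided permutation tests of 3 against 3 libraries reach p = 0.1 at best, so none was run.

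Coding and transcript lengths are from GENCODE M21 (GRCm38), matched by symbol. Genes were named by a rule: every mitochondrial row, the 2 smallest p and 2 highest mean CPM of each complex, subunit isoforms, the c subunits, Atp5if1, and the 2 smallest p of each related list. Ndufs1, Ndufs7, Ndufv1, Ndufaf4, Sdha, Uqcrfs1, Atp5f1b, Atp5pd, Atp5me, Ppargc1a and the copy rows were picked after seeing their values. The values of some rows are not reported here. The members, lists and tests were chosen with earlier results of these data known.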

Additional observations from a re-analysis of the deposited data

How the results depend on the processing

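No member was called under any of the 15 alternatives, with the smallest adjusted p of each running from 0.0769 to 0.699. Leaving aside left-out libraries, the median log2 fold change was 0.14 to 0.19 for nuclear subunits and 0.10 to 0.17 for mitochondrial rows. Leaving out 1 library gave 0.05 to 0.31 and 0.06 to 0.25. Over all genes, 31 were called higher and 36 lower as reported. The counts were 171 and 258 with no filter, 63 and 115 with at least 10 CPM in 3 libraries, 203 and 264 with DESeq2, and 0 to 24 and 0 to 31 with 1 library left out (0 higher without control replicate 3, IGF-1 replicate 1 or IGF-1 replicate 2). The cause was not tested.

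Libraries with the same replicate number did not deviate together (correlations -0.05, 0.00 and 0.05), so the numbers were not taken to pair them. The fit with the replicate block called 3 genes higher and 5 lower and no member, with medians of 0.16 and 0.16, and Pdp1 lost its call (edgeR adjusted p = 0.0902). A fit without IGF-1 replicate 3 and with the block, chosen after seeing the data, called 3 higher and 3 lower, with medians of 0.30 and 0.14 and 11 members at an unadjusted p under 0.05, against 48 without the block. Fastkd2 passed with no filter (edgeR adjusted p = 0.0446), and Pdk3 and Gabpa with DESeq2. Rows under about 1 CPM and rows with near-identical copies are limited by depth or by read placement.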

Other observations

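The symbol rule also took 7 rows that are copies of another member, of which 2 (Ndufb11b and Ndufs6b) had 0 counts. Ndufa12-ps stood at 21.1, 21.8 and 24.4 CPM in controls and 30.4, 34.4 and 23.4 CPM with IGF-1, and Cox5b-ps at 19.7, 19.6 and 16.4 CPM and 22.9, 25.1 and 19.1 CPM. In both, IGF-1 replicates 1 and 2 were above all controls and replicate 3 was within their range. Ndufb4b was at 5.39 ± 1.05 and 5.43 ± 1.22 CPM and Ndufb4c at 1.08 ± 0.407 and 1.36 ± 0.430 CPM (SD, n = 3 each), and Atp5c1-ps was at most 0.474 CPM in any library. Reads of a copy and of its parent gene may not be told apart, and no copy row was called (smallest edgeR adjusted p = 0.455).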
